A study of Mus musculus with 8 samples.

Results

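The genes described are 10 markers of astrocytes, the star-shaped glia that supply neurons with lipids and metabolites, clear potassium, glutamate and water, and wrap blood vessels with their endfeet. They are Gfap, Aqp4, S100b, Aldh1l1, Gja1, Gjb6, Clu, Apoe, Ntsr2 and Slc4a4, and they were taken by name. Every probe set that the array's annotation gives to one of these symbols was used, which made 28 of the 45037 probe sets tested and 10 of the 18193 genes with a probe set of their own. None of the 28 also carried the symbol of another gene. The genes were measured in secondary neurospheres on 8 arrays. These are spheres of neural stem cells and their progenitors that regrow in suspension after a first generation was dissociated. The cells came from the forebrains of FVB/N mice, and the groups were 4 arrays of FoxO3 null mutants, which lack both copies of the gene for the forkhead transcription factor FoxO3, and 4 arrays of wild type mice. All spheres were kept in a serum-free medium that favours self-renewal, to which EGF (20 ng/ml) and bFGF (20 ng/ml) were added. Seeding was at 50000 cells/ml, and the spheres were taken after 6 days. The sources used here do not give the age or sex of the mice.

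Each genotype was split evenly over 2 numbered sets, with 2 arrays of each genotype in a set. What a set is, and whether the arrays of a set came from separate cultures or animals, is not given, so p-values measure only how far these 8 arrays scatter, and that scatter may be technical. Values are log2 expression levels of the deposited table, and array medians lay between 6.27 and 6.31. Arrays of the same set correlated at 0.996 or more over all probe sets, and arrays of different sets at 0.991 or less. The label of the null arrays was checked on Foxo3 itself: probe set 1434831_a_at read 10.00 to 10.32 in wild type and 8.86 to 9.14 in null arrays, and 1434832_at read 9.22 to 9.40 against 7.96 to 8.62, while 1450236_at read 5.06 to 5.49 against 5.49 to 5.63. The sources used here do not say which of them match the deleted stretch. By each gene's brightest probe set, 13 of 13 measured stem and progenitor markers lay above the array's median level, as did 9 of the 10 astrocyte markers. So did 7 of 7 oligodendrocyte progenitor and 8 of 8 mature oligodendrocyte markers, so this level does not single out 1 cell type. Of 10 microglia and macrophage markers, 2 lay above the median level.

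Many astrocyte markers are already on in the stem cells of the adult forebrain, which are themselves astrocyte-like: Gfap, Aldh1l1, Gja1, Slc1a3 and Apoe are shared by both cell types. In growth factors, neurospheres hold stem cells and progenitors, and a minority of cells that begin to differentiate into astrocytes, oligodendrocytes and neurons. Astrocyte genes in the embryonic and postnatal forebrain are switched on by STAT3, downstream of the CNTF and LIF cytokines, by nuclear factor I (NFI) proteins and by Sox9. FoxO factors are held out of the nucleus when insulin or growth factors activate Akt.

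Without FoxO3, 2 of the 28 probe sets changed and both fell: Ntsr2, a receptor for the peptide neurotensin found on astrocytes, was reduced to 66.8% of its wild type level, and Apoe, the main lipid carrier protein that astrocytes secrete, to 76.4%. Of all probe sets, 0.586% were lower and 0.215% higher in FoxO3 null by the same rule, an adjusted p under 0.05 in limma with set as a term and Benjamini-Hochberg adjustment over all 45037. By gene, 2 of 10 were lower and 0 higher, against 0.874% and 0.242% of all genes when each is represented by its brightest probe set. The 10 genes were chosen with earlier results of these data known, so these counts are no independent evidence of direction. Neither call held with the arrays of a set and genotype averaged (adjusted p = 0.123 for Ntsr2 and 0.195 for Apoe) or with set as a random block (0.133 and 0.264). The other 26 probe sets did not pass, and the 28 divided into 14 with a negative and 14 with a positive difference. Their median difference was -0.0084 on the log2 scale, beside 0.0098 over all probe sets. With 1 probe set per gene, 7 of 10 differences were negative and the median was -0.14, beside 0.0091 over all genes. At an unadjusted p under 0.05 there were 12 of 28, beside 12.7% of all probe sets. Probe sets of the same gene are repeat readings, and the 12 include all those of Clu and Aqp4. With 1 probe set per gene there were 5 of 10, beside 14.5% of all genes. The spheres were measured whole, so fewer cells of a type and less RNA per cell cannot be told apart.

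The start of the Ntsr2 gene is shown because Ntsr2 fell in both sets, and that of S100b because its level differed most between the sets. Both stretches come from the RefSeq promoter table for mouse build GRCm38.p6, on the plus strand, and end at the base before the gene's first annotated base. The Ntsr2 stretch is chr12:16653220-16653442 and that of S100b chr10:76253586-76253835. Capitals mark the NFI half-site TTGGC, or GCCAA where it lies on the opposite strand, and in Ntsr2 also the STAT motif TTCNNNGAA.
Ntsr2: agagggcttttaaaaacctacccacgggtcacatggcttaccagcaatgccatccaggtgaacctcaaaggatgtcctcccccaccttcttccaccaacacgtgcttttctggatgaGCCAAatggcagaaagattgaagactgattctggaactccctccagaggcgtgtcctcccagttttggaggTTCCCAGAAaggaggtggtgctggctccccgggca
S100b: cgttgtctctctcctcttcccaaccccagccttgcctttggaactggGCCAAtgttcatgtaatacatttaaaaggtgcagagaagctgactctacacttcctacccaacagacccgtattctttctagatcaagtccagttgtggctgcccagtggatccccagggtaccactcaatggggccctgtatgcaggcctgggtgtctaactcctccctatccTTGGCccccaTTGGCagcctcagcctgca

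The table held 11 promoters for 8 of the genes, all but Aqp4 and Clu. For this, 3 motifs were searched on both strands in the 250 bases before each start site that the table gives: the forkhead motif GTAAACA bound by FoxO factors, the STAT motif and the NFI half-site. GTAAACA was in 0 of the 11, and in 3.17% of all 32851 promoters of the table. The STAT motif was in 1, that of Ntsr2, where it begins 35 bases before the end of the printed stretch, and in 7.02% of all promoters. The half-site TTGGC, short enough to occur often, was in 6 of the 11, and in 41.5% of all. These 6 belong to Apoe, Ntsr2, S100b and Slc4a4, but 1 promoter of Apoe did not hold it. The promoters given for Apoe and Slc4a4 lie inside the annotated genes. S100b held it 3 times, beginning 203, 29 and 19 bases before the end of its stretch, and Ntsr2 had 1, beginning 106 bases before the end. The start site given for Ntsr2 lies 27 bases past the end of the printed stretch, inside the annotated gene, and those 27 bases were searched but are not printed. These are matches of letters in a short window, and binding was not measured.

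**Figure D1:**
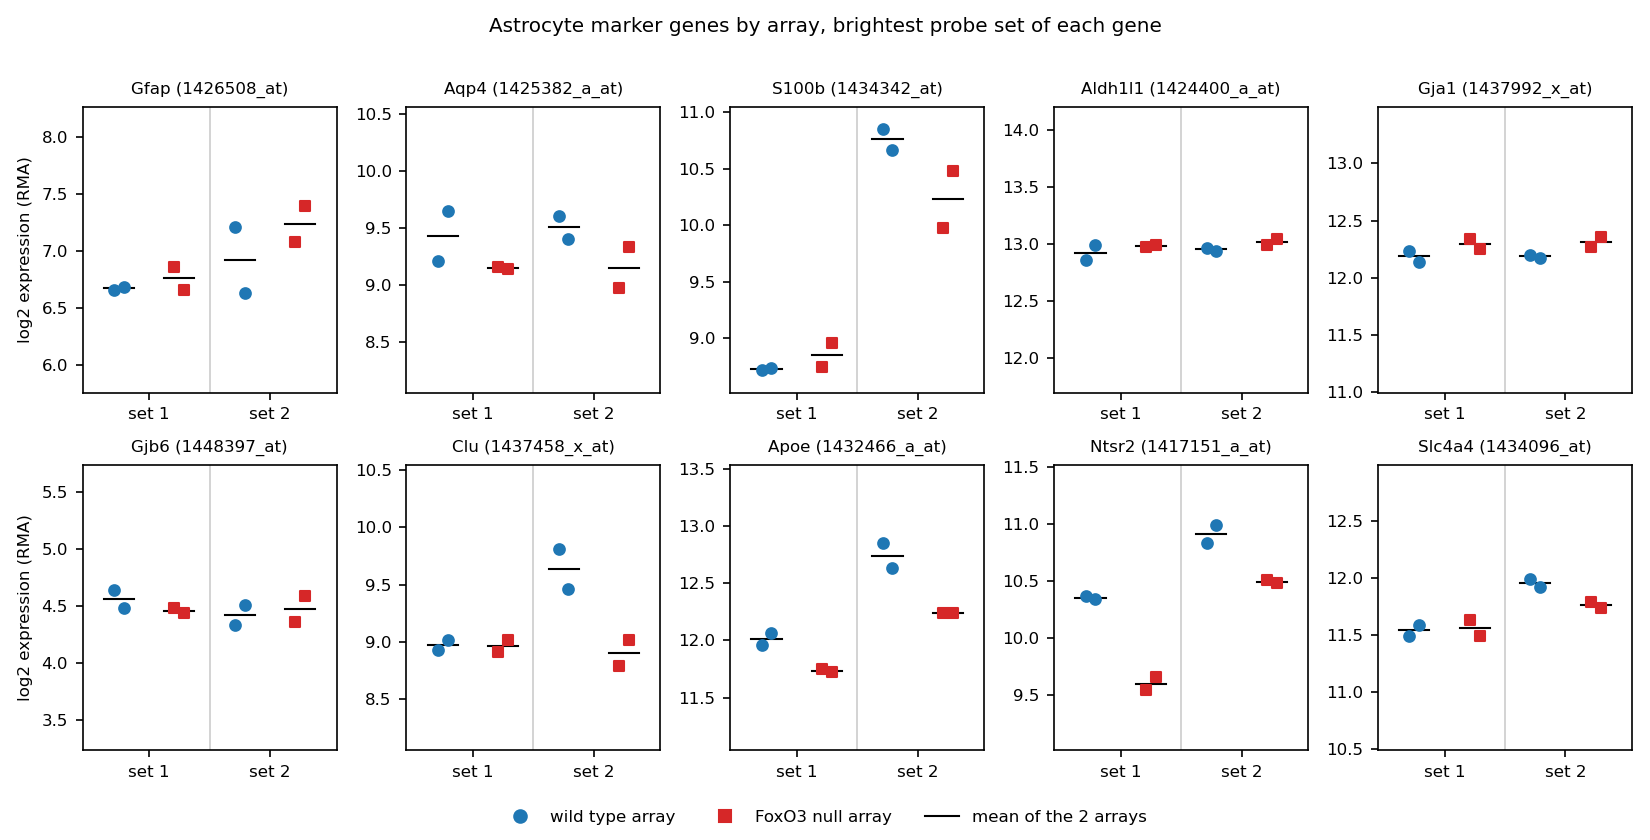
Log2 expression of the brightest probe set of each of the 10 genes on each of the 8 arrays (y axis, equal spans of 2.5 log2 units), by set, with wild type as blue circles, FoxO3 null as red squares and a line at the mean of the 2 arrays. Ntsr2 and Apoe are lower in both null arrays of each set, while S100b differs by set far more than by genotype.

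Ntsr2 (1417151_a_at, a gene of chromosome 12) read 10.37 and 10.34 in the wild type arrays of set 1 and 9.55 and 9.66 in the null arrays. In set 2 it read 10.83 and 10.99 in wild type and 10.51 and 10.48 in null. The genotypes were apart within each set, but the null arrays of set 2 lay above the wild type arrays of set 1. Its difference was -0.58 ± 0.08 (SE; 95% interval -0.75 to -0.41; adjusted p = 0.0101). In set 1 alone it was -0.75 (adjusted p = 0.0398), and Ntsr2 was the 1 probe set of 28 that passed there, where 0.0933% of all passed. In set 2 alone it was -0.41 (adjusted p = 0.15), and the interaction, the set 2 difference minus that of set 1, did not pass (0.34, 95% interval 0.07 to 0.60, adjusted p = 0.529). Leaving out 1 array at a time, Ntsr2 passed in 7 of 8 fits and missed without wild type 1_1 (adjusted p = 0.0518).

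Apoe (1432466_a_at, chromosome 7) read 11.96 and 12.06 in wild type and 11.75 and 11.72 in null arrays of set 1, then 12.85 and 12.63 against 12.24 and 12.24 in set 2. Here too each null array lay below both wild type arrays of its own set. The difference was -0.39 ± 0.07 (95% interval -0.54 to -0.23; adjusted p = 0.0372), with -0.27 in set 1 (adjusted p = 0.389) and -0.50 in set 2 (adjusted p = 0.118), and an interaction of -0.23 (adjusted p = 0.751). Apoe kept its direction but passed in 0 of the 8 fits without 1 array, with adjusted p between 0.0562 and 0.127. Microglia express Apoe as well. The summed level of 10 microglia and macrophage markers was 479 to 501 in wild type and 458 to 522 in null arrays, as linear signal over the genes' brightest probe sets. Only 2 of these 10 lay above the median level, so the sum says little about the dimmer ones. The part of microglia in the fall of Apoe was not tested.

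Y-linked genes were on average lower in the null arrays of each set too. Their gap was wider in set 2, as was that of Apoe (-0.27 in set 1 and -0.50 in set 2). That of Ntsr2 was wider in set 1 (-0.75 against -0.41). The mean of Eif2s3y, Kdm5d and Uty was 8.18 to 8.35 in wild type and 7.90 to 8.09 in null arrays of set 1, and 7.66 to 7.80 against 6.88 to 7.10 in set 2, and Xist was higher in null by 0.44 (adjusted p = 0.0453). With that mean added to the fit as a covariate, Ntsr2 was -0.81 (adjusted p = 0.131) and Apoe -0.23 (adjusted p = 0.868), and 0 of the 45037 probe sets passed. The mean itself differed by genotype in each set, and more in set 2, so it overlaps with the genotype and set terms. This fit therefore cannot separate it from genotype, or from a genotype difference that depends on set. RNA quality was read from the actin controls, as the log2 value of the 3' end less that of the 5' end, which was 0.52 to 0.54 in wild type and 0.47 to 0.49 in null arrays of set 1, and 0.36 to 0.39 against 0.33 to 0.36 in set 2. The Gapdh controls did not show this gap between the sets. Their 3' less 5' value was -0.08 to -0.07 in wild type and -0.10 to -0.09 in null arrays of set 1. In set 2 it was -0.11 to -0.07 against -0.11 to -0.10. The part of RNA quality in the falls was not tested.

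Clu encodes clusterin, a secreted chaperone and the second lipoprotein component of the group beside Apoe. Its 4 probe sets were all lower in null with both sets together, by values between -0.73 and -0.31, and none passed (adjusted p 0.139 to 0.389). The 4 agreed in showing this difference mainly in set 2. There 1437458_x_at, the brightest, read 9.81 and 9.46 in wild type and 8.79 and 9.02 in null, while in set 1 it read 8.93 and 9.01 against 8.91 and 9.01. The widest gap was in 1437689_x_at, with 9.39 and 8.87 in wild type and 7.69 and 8.10 in null arrays of set 2, and 7.58 and 7.46 against 7.18 and 7.39 in set 1. Over the 4 probe sets the difference was -0.23 to 0.05 in set 1 and -1.23 to -0.68 in set 2, where the adjusted p lay between 0.065 and 0.156. The interaction was -0.997 to -0.724, with adjusted p between 0.219 and 0.332. No Clu probe set passed any of these tests in the main fits. With a variance trend in limma, 1437689_x_at passed for genotype (adjusted p = 0.0441). All 4 then passed in set 2 (adjusted p 0.0029 to 0.0192). The wild type arrays of set 2 were above the other 6 in every Clu probe set. The sign of all 4 turned when the mean of the Y-linked genes was added to the fit, to values between 0.25 and 0.42. That mean also differed by genotype more in set 2, so the fit cannot separate it from a genotype difference that depends on set.

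S100b, a calcium-binding protein that in the forebrain marks maturing astrocytes and also some oligodendrocyte lineage cells, had an opposed sign in the sets. In set 1, 1434342_at read 8.72 and 8.73 in wild type and 8.75 and 8.96 in null. In set 2 it read 10.85 and 10.67 in wild type and 9.98 and 10.48 in null. The genotypes were apart in each set, null above wild type in set 1 and below it in set 2, and 1419383_at showed the same order. The differences of these probe sets were 0.13 and 0.15 in set 1 and -0.53 and -0.48 in set 2, and the interaction did not pass (adjusted p = 0.474 and 0.204). With both sets together they were -0.20 and -0.17 (adjusted p = 0.632 and 0.623). The sign turned when the mean of the Y-linked genes was added, to 0.49 and 0.33, with the same limit as for Clu. S100b lies on chromosome 10, as Foxo3 does, 34.0 Mb from it.

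In set 2 as a whole, 0 of the 28 probe sets passed in limma, where 0.324% of all did, while 14 had an unadjusted p under 0.05, beside 11.1% of all probe sets. In set 1, 5 did, beside 8.67%. In the interaction test 0 of 28 passed, where 0.0688% of all did, and 8 had an unadjusted p under 0.05, beside 7.54%. These counts are not of independent readings. The 14 of set 2 include every probe set of Clu, Aqp4 and S100b, and the 8 every one of Clu and S100b. The sign was the same in both sets for 16 of 28, beside 55.6% of all probe sets.

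**Figure D2:**
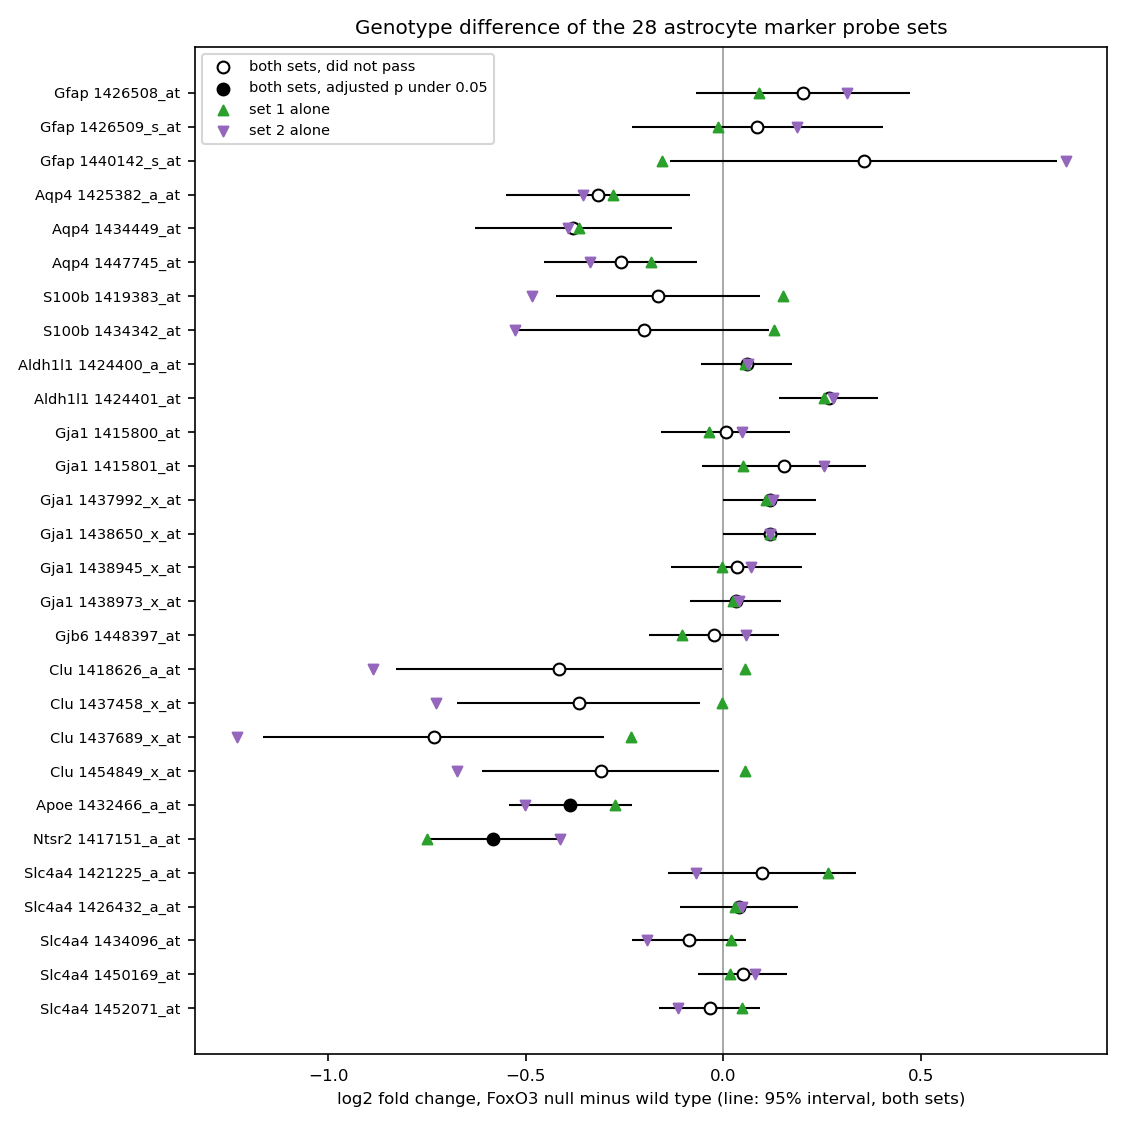
Log2 fold change of FoxO3 null minus wild type (x axis) for each of the 28 probe sets (y axis), with both sets (circles, filled where adjusted p was under 0.05, with 95% intervals), set 1 alone (green triangles) and set 2 alone (purple triangles). Only Ntsr2 and Apoe have filled circles, and the Clu and S100b probe sets have purple triangles far to the left of the green ones.

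Gfap, the intermediate filament protein by which astrocytes and adult stem cells are most often stained, had positive differences at all 3 of its probe sets with both sets together. Its brightest probe set, 1426508_at, read 6.66 and 6.69 in wild type and 6.86 and 6.66 in null arrays of set 1, and 7.21 and 6.63 against 7.08 and 7.39 in set 2, so the genotypes overlapped in both sets. The differences were 0.20, 0.09 and 0.36, and none passed (adjusted p 0.554 to 0.871). That of 1426509_s_at turned its sign without wild type 2_2 (-0.07) and without FoxO3 null 2_2 (-0.03). The 95% interval of 1426508_at reached from -0.07 to 0.47, and that of 1440142_s_at from -0.13 to 0.84. The latter ranged from 4.41 to 6.51 over the arrays, with its highest values in the null arrays of set 2. Its genotypes were apart in each set in opposed directions, at -0.16 in set 1 and 0.87 in set 2. Its interaction in limma was 1.02 and did not pass (adjusted p = 0.458). In set 1 1426509_s_at was slightly negative as well (-0.01), against 0.19 in set 2.

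Aldh1l1, an enzyme of folate metabolism used as a general marker of astrocytes, had positive differences as well. Its bright probe set 1424400_a_at read 12.86 and 12.99 in wild type and 12.97 and 12.99 in null arrays of set 1, and 12.97 and 12.94 against 12.99 and 13.04 in set 2. The difference was 0.06 (95% interval -0.06 to 0.17; adjusted p = 0.72). The other probe set, 1424401_at, read 7.51 to 7.71 in wild type and 7.80 to 7.88 in null arrays. It was higher in every null array than in every wild type array, by 0.27 (95% interval 0.14 to 0.39), and missed the threshold (adjusted p = 0.0691).

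The water channel of astrocyte endfeet, Aqp4, was lower in null at all 3 probe sets and in both sets, without passing. Its brightest, 1425382_a_at, read 9.21 and 9.65 in wild type and 9.16 and 9.14 in null arrays of set 1, and 9.61 and 9.40 against 8.97 and 9.33 in set 2. The genotypes were apart within each set and overlapped over all 8 arrays. The 3 probe sets differed by -0.32, -0.38 and -0.26 (adjusted p = 0.238, 0.183 and 0.244), close to each other in both sets, between -0.37 and -0.18 in set 1 and between -0.39 and -0.34 in set 2. In 1447745_at every null array lay below every wild type array, although the nearest pair read 7.54 in both groups to 2 decimals. It was the only one of the 28 with this order, which 1.33% of all probe sets showed. The opposite order, every null array above every wild type array, was found in 3 of 28, 1 of Aldh1l1 and 2 of Gja1, beside 1.78% of all.

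Gja1 encodes connexin 43, the main gap junction protein of astrocytes and of neural progenitors. All 6 probe sets differed by a small positive value, 0.0063 to 0.15, and none passed (adjusted p 0.393 to 0.985). The sign of 1415800_at and 1438945_x_at turned on leaving out 1 array. The brightest, 1437992_x_at, read 12.23 and 12.14 in wild type and 12.34 and 12.25 in null arrays of set 1, and 12.20 and 12.18 against 12.27 and 12.35 in set 2. Every null value was above every wild type value, with a difference of 0.12 (95% interval 0.00011 to 0.23; adjusted p = 0.393). Gja1 lies 14.1 Mb from Foxo3 on chromosome 10.

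Gjb6 encodes connexin 30, which appears in mature astrocytes. Its 1 probe set was dim, at the 6.38th percentile of all probe sets, and read 4.64 and 4.48 in wild type and 4.48 and 4.44 in null arrays of set 1, and 4.33 and 4.50 against 4.36 and 4.59 in set 2. The genotypes overlapped, and at this brightness a difference would be hard to see (-0.02, adjusted p = 0.942).

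Slc4a4, a sodium bicarbonate cotransporter that regulates astrocyte pH, had 5 probe sets with differences between -0.09 and 0.10, none of which passed. Its brightest, 1434096_at, read 11.49 and 11.59 in wild type and 11.63 and 11.49 in null arrays of set 1, and 11.99 and 11.92 against 11.79 and 11.73 in set 2. Its interval of -0.23 to 0.06 is narrow beside the fall of Ntsr2.

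The sets differed more than the genotypes for most of these genes. With genotype as a term, 14 of 28 probe sets were higher in set 2 and 0 lower, in 7 of the 10 genes, whereas 19.5% of all probe sets were higher and 18.9% lower by the same rule. The median difference was 0.26, beside -0.0074 over all probe sets. Of a probe set's variation over the 8 arrays, set held a median of 51.8% (41.1% over all probe sets) and genotype 11.7% (6.19%), and set held more than genotype in 19 of 28. This comparison was added after the values were seen.

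The 2 S100b probe sets were higher in set 2 by 1.38 and 1.70, the 3 of Gfap by 0.36 to 1.12, and 3 of 4 Clu probe sets by 0.91 to 1.11. Ntsr2 was higher by 0.72 and Apoe by 0.62, each by more than its genotype difference. Of Slc4a4, 3 of 5 passed, by 0.20 to 0.64. No probe set of Aqp4, Aldh1l1 or Gjb6 passed.

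The probe sets of Gja1 disagreed. 1415801_at read 7.74 to 8.06 in the 4 arrays of set 1 and 9.19 to 9.62 in those of set 2, a difference of 1.57 (adjusted p = 2.53e-06). The other 5 differed by -0.19 to 0.04 and did not pass. Which stretch of the transcript each probe set matches is not in the tables used here, so the level of Gja1 in the sets cannot be given as 1 value.

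**Figure D3:**
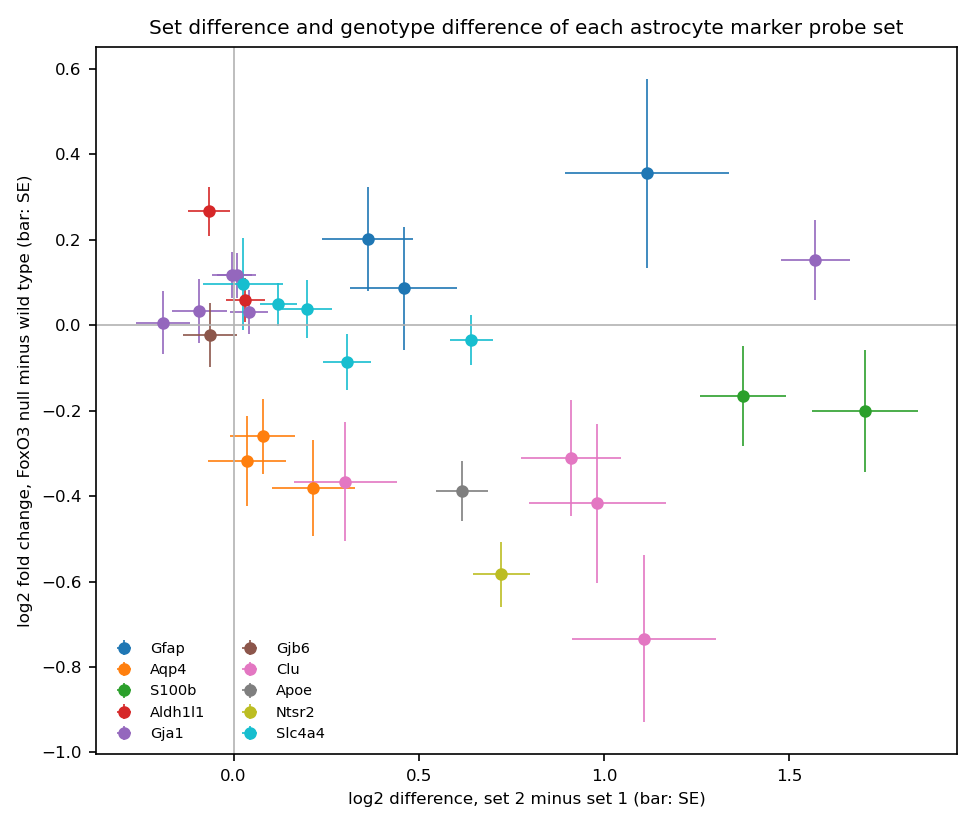
Log2 difference of set 2 minus set 1 (x axis) against log2 fold change of FoxO3 null minus wild type (y axis) for each of the 28 probe sets, coloured by gene, with bars of 1 SE. The spread along x, up to 1.70 for S100b, exceeds that along y, and 1 Gja1 probe set stands at 1.57, away from the other 5 near 0.

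Markers of other cell types moved with set as well. Of 8 mature oligodendrocyte markers, 8 were higher in set 2, by 0.46 to 2.94, and their summed linear signal was 10209 to 12461 in set 1 and 26552 to 31486 in set 2. The sum over the 10 astrocyte markers was 21781 to 23169 in set 1 and 25033 to 29683 in set 2. Among 7 oligodendrocyte progenitor markers 5 were higher in set 2, among 10 neuron markers 2 were higher and 3 lower, and among 13 stem and progenitor markers 4 were higher and 6 lower. The part of these cell types in the set difference was not tested.

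Other genes were taken from lists of the markers' pathways, of other cell types and of Y-linked genes, each gene by its brightest probe set. Beside the 10, 181 were measured, and 11 of them passed for genotype in limma. Over all genes, 0.874% were lower and 0.242% higher by the same rule. The 11 include the Y-linked gene Uty (-0.42; adjusted p = 0.0423). Of 23 further astrocyte genes, 3 fell and 0 rose, with 17 negative differences and a median of -0.06, beside 0.0091 over all genes. They were Slc1a2, the glutamate transporter GLT-1 (-0.84 ± 0.06, SE; adjusted p = 0.000649), Ndrg2, a gene of the Ndr family strongly expressed in astrocytes (-0.75 ± 0.06; adjusted p = 0.000957), and Fgfr3, an FGF receptor of astrocytes and their precursors (-0.39 ± 0.06; adjusted p = 0.0206). Each of the 3 had the same sign in both sets, with Ndrg2 at -0.83 in set 1 and -0.66 in set 2. Like Ntsr2, Slc1a2 and Ndrg2 were higher in set 2, by 0.63 and 1.18, but Fgfr3 was not (-0.085; adjusted p = 0.296 in limma). Of the 23 genes, 14 were higher in set 2 and 1 lower. These lists were drawn up with earlier results of these data known, and their counts are no independent evidence of direction.

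Of the 7 oligodendrocyte progenitor markers, 4 fell in null: Pdgfra, the PDGF receptor of these cells (-0.67), Gpr17, an orphan receptor of their differentiating stage (-0.66), Cspg4, the NG2 proteoglycan (-0.56), and the lineage transcription factor Sox10 (-0.27). Their list's summed signal was 24594 to 27775 in wild type and 24950 to 27557 in null arrays. That sum comes mainly from Olig1 and Olig2, with wild type means of 14.16 and 12.54 and differences of 0.05 and -0.04. The 4 that fell had wild type means of 8.87 or less, so the sum says little about them. Of 8 mature oligodendrocyte markers 0 passed for genotype (4 at an unadjusted p under 0.05), with a median of 0.33 (0.60 in set 1 and -0.02 in set 2). Among 10 neuron markers 1 fell, the GABA-synthesising enzyme Gad1 (-0.91; adjusted p = 0.00268). The part of these cells in the falls of Ntsr2 and Apoe was not tested.

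**Figure D4:**
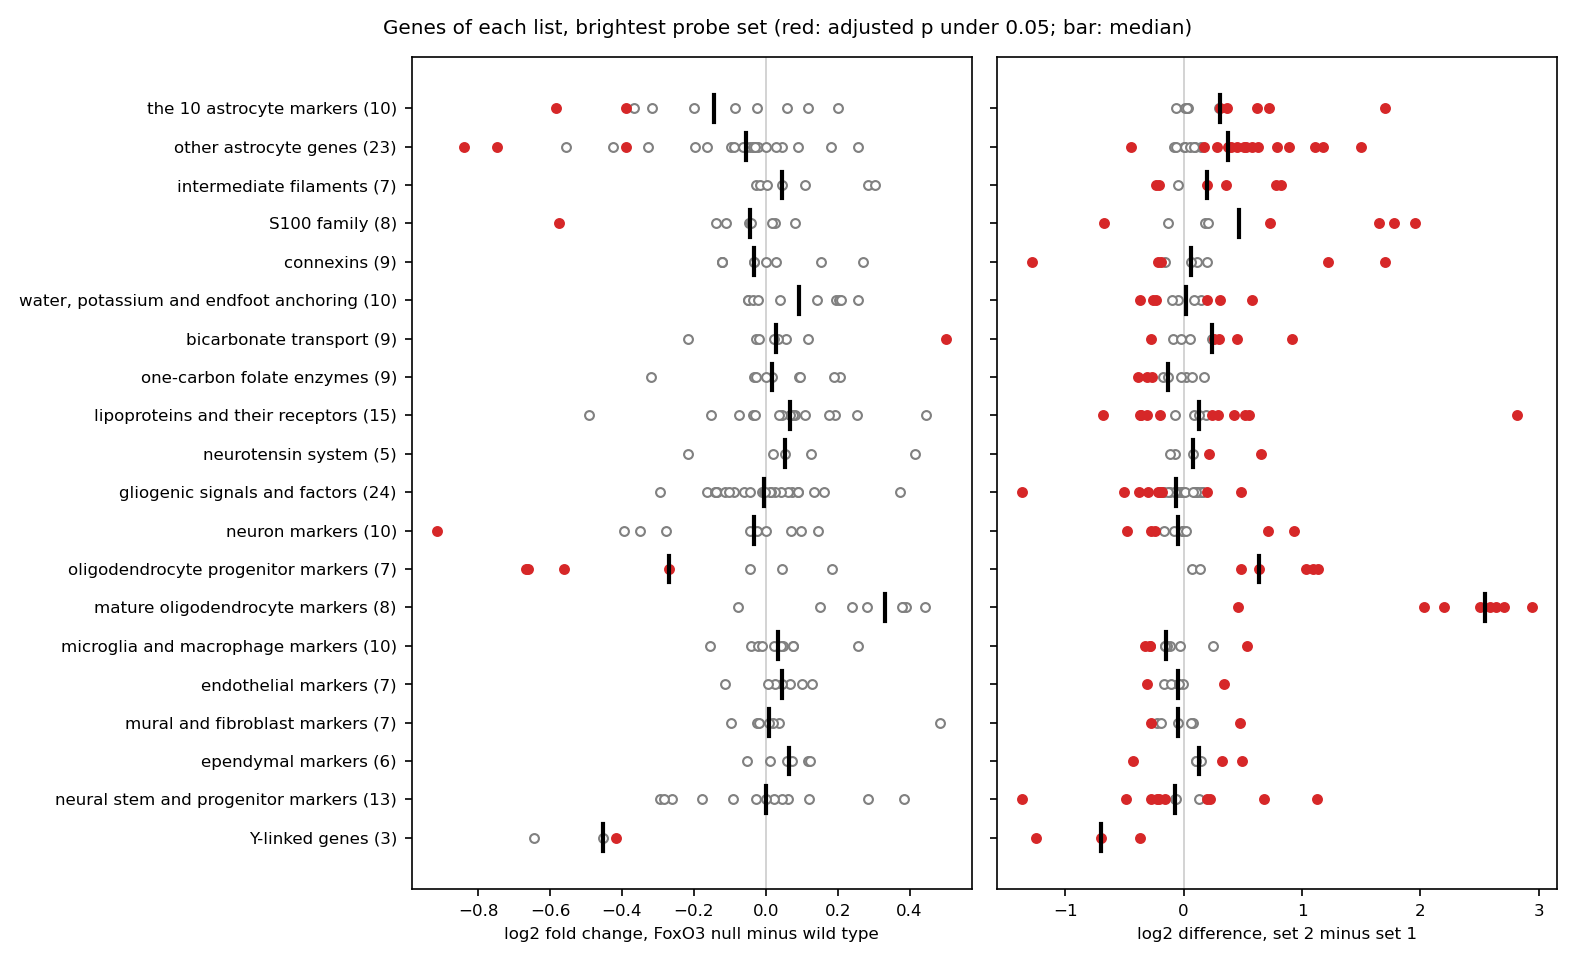
Log2 fold change of FoxO3 null minus wild type (left x axis) and log2 difference of set 2 minus set 1 (right x axis) for the genes of each list (y axis, number of genes in brackets), with red points at adjusted p under 0.05, grey rings otherwise and a black bar at the median. Few points are red on the left, while on the right the mature oligodendrocyte markers all lie at 0.46 or above.

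The remaining lists follow the roles of the 10 genes. Among 7 other intermediate filament genes 0 passed in limma, and 2 had an unadjusted p under 0.05. Nes, the nestin of stem cells, was closest to passing (0.29 ± 0.06; adjusted p = 0.0567). Of 8 genes of the S100 family and their receptor, 1 fell, S100a10, the partner of annexin A2 (-0.58; adjusted p = 0.0155). Of 9 bicarbonate transport genes 1 rose, Slc4a2, an anion exchanger (0.50 ± 0.07; adjusted p = 0.0168). Among 9 other connexins and a partner protein 0 passed (1 at an unadjusted p under 0.05), with Gjb1 at 0.27 (adjusted p = 0.348). Among 10 genes for water and potassium channels and the proteins that anchor them at endfeet 0 passed (5 unadjusted), with Kcnj10, the potassium channel Kir4.1, at 0.26 (adjusted p = 0.114). Over all genes, 14.5% had an unadjusted p under 0.05.

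Among 15 genes for other lipoproteins, their receptors and their regulators 0 passed (3 at an unadjusted p under 0.05). The lowest p were those of Srebf1, a regulator of lipid synthesis (0.25; adjusted p = 0.0668), and Vldlr, a receptor that binds apolipoprotein E (-0.49; adjusted p = 0.114). Among 5 other genes of the neurotensin system, which include sortilin family receptors, 0 passed (3 unadjusted), with Sorcs2 at 0.41 (adjusted p = 0.0972). Among 9 folate enzymes 0 passed (2 unadjusted), with Aldh1l2, the mitochondrial relative of Aldh1l1, at -0.32 (adjusted p = 0.16). Of 24 gliogenic signals and factors, the list that holds the CNTF and LIF pathway, NFI genes and Notch effectors, 0 passed (6 unadjusted) and the median was -0.0038. Socs3, a STAT3 target that feeds back on it, was at 0.37 (adjusted p = 0.122) and Hes5, a Notch effector, at -0.29 (adjusted p = 0.165).

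The genes whose pattern over the 8 arrays lay nearest to Ntsr2, by Euclidean distance between log2 values with the set means removed, were Enpp5 (0.10), Scg5 (0.20) and Rab33a (0.26), where the median distance of all genes was 0.91. Their genotype differences were -0.64, -0.54 and -0.53. Nearest to Apoe were Snap91 (0.10), Igf1r (0.14) and Klf9 (0.14), where the median was 0.65, with differences of -0.39, -0.42 and -0.42. Likeness over so few arrays is a description.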

How the data were processed

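RNA of secondary neurospheres was labelled with biotin and hybridised to Affymetrix Mouse430_2 arrays, 1 sample per array. The authors deposited 1 table of log2 expression values. The submitters' processing notes name RMA, with no version. RMA corrects background, brings all arrays to 1 distribution and combines probes into 1 value per probe set. A change is therefore measured against the rest of the array, and differences of dim probe sets are compressed. Scanner files were not used here. The number of arrays limits the precision.

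Of 45101 probe sets, 64 Affymetrix controls were left out. Platform annotation gave 34945 of the rest 1 symbol, 932 several and 9160 none. FoxO3 null was set against wild type in R 4.3.3 by limma 3.58.1 (lmFit, eBayes; two-sided; adjusted p under 0.05) on all 8 arrays with set as a term, then in each set, and for the interaction. The procedure was tested on simulated data in which the noise of each array was drawn independently. Such data cannot show how the procedure behaves if arrays of a set are technical repeats. The 10 genes and the gene lists were chosen with earlier results of these data known. The genes named are all 10 with every probe set, values by array for those that passed and for the brightest of each gene, and from each list up to 6 passing genes, or up to 2 with the smallest p. Arrays with the same number within a set did not deviate together (correlation 0.07 in set 1 and -0.06 in set 2), so numbers were not used as pairs. Alternatives covered the set term, the blocks, the normalization, the filter, the variance model, the threshold and each array left out.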

Additional observations from a re-analysis of the deposited data

Results flagged for a closer look

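In 2 probe sets, wild type 2_1 stood apart from the other 3 wild type arrays, by a gap that took up most of the group's range. It read 7.21 for Gfap 1426508_at, where the nearest other array read 6.69, and 9.76 for Aqp4 1434449_at, where the nearest read 9.31. Chance flags about 1 in 20 such groups. Without this array 0 of the 3 Gfap and 0 of the 3 Aqp4 probe sets passed, as with it.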

How the results depend on the processing

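Of the 2 probe sets that passed for genotype, 0 passed under each of 6 alternatives: a threshold of 0.01, the set term left out, set as a random block, the arrays of a set and genotype averaged, no moderation of the variance, and the Y-linked mean in the fit, and 4 passed with set and genotype as a random block (Aldh1l1 1424401_at and Aqp4 1434449_at beside Ntsr2 and Apoe); counts of genes were the same. With a replicate block 1 passed, Ntsr2 (adjusted p = 0.0441), and 138 of all probe sets in place of 361; the numbers are not known to pair the arrays. The count was 3 at an adjusted p under 0.1 and with only probe sets above the median level, both times with Aldh1l1 1424401_at. A variance trend also gave 3, with Clu 1437689_x_at as the third. Leaving out 1 array gave 0 to 1, with 0 without wild type 1_1. In set 1 alone the count of 1 became 0 at 0.01, with no moderation and without each array in turn (the lone array then being assumed to vary like the others). In set 2 alone the count of 0 became 2 at an adjusted p under 0.1, 7 with a variance trend, 2 after quantile normalization again and 1 with the probe set of largest variance per gene. All of these were Clu probe sets, except that the 7 were the 4 of Clu with S100b 1419383_at, Ntsr2 and Apoe. The interaction count of 0 became 2 with a variance trend (S100b 1419383_at, adjusted p = 0.0393, and Clu 1454849_x_at, 0.0439). The 14 that differed between the sets became 5 and 7 with 1 probe set per gene, of highest mean or largest variance, where 10 were tested. The 11 other list genes became 3 at 0.01, 0 with no set term, no moderation or the Y-linked covariate, 4 with set as a random block or array means, 25 with set and genotype as a random block, 23 with a variance trend, and 4 to 10 without 1 array. With the Y-linked covariate the sign turned in 8 probe sets: Clu (0.42, 0.27, 0.25 and 0.32), S100b (0.33 and 0.49), Slc4a4 1426432_a_at (-0.035) and Slc4a4 1452071_at (0.011). That covariate differed by genotype more in set 2, so these turns cannot be told apart from a genotype difference that depends on set. Without 1 array, Gja1 1415800_at ranged from -0.051 to 0.048, Gja1 1438945_x_at from -0.028 to 0.080, Gjb6 from -0.084 to 0.026, Gfap 1426509_s_at from -0.070 to 0.20 and Slc4a4 1426432_a_at from -0.017 to 0.098. The causes were not tested. Gjb6 and the 4 other probe sets below the median level call for the most caution. They lay between the 6.38th percentile (Gjb6) and the 49.8th (Gja1 1438973_x_at), and their distance from background was not measured.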

Other observations

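Markers of cell types other than glia and neurons gave no passing gene in limma. Of 13 neural stem and progenitor markers 0 passed for genotype and 6 had an unadjusted p under 0.05. The smallest p was that of Hopx, a homeodomain protein found in quiescent stem cells, which was at 0.39 (adjusted p = 0.0536). Of 10 microglia and macrophage markers 0 passed and 1 had an unadjusted p under 0.05, with P2ry12, a purine receptor of microglia, at 0.26 (adjusted p = 0.218). Of 7 endothelial markers 0 passed (1 unadjusted), of 7 mural and fibroblast markers 0 (1 unadjusted), and of 6 ependymal markers 0 (0 unadjusted). Acta2, the smooth muscle actin, was at 0.14 in set 1 and 0.83 in set 2 (0.49 together, adjusted p = 0.173), and Foxj1, the factor of ciliated ependymal cells, at 0.12 (adjusted p = 0.493).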
